A study of Homo sapiens with 7 samples.

Results

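The hypoxia-inducible factor (HIF) genes and a set of their targets outside glycolysis were followed in HEK-293 cells, an established human embryonic kidney line. The 10 genes were listed by name: the α subunit genes HIF1A and EPAS1, the prolyl hydroxylase genes EGLN1 and EGLN3, and the targets VEGFA, ADM, BNIP3, NDRG1, ANKRD37 and KDM3A. All 10 were found among the 19978 genes of the deposited table, and all 10 were among the 14863 genes with enough counts to be tested. Poly(A) RNA was sequenced from 7 samples of this 1 line after 48 h. Control cells (2 samples) were kept in DMEM of pH 7.4 with the vehicle DMSO. Acidosis cells (3 samples) were kept in DMEM brought to pH 6.6 with HCl, also with DMSO. SRPIN340 cells (2 samples) received 10 µM of this SR protein kinase inhibitor in DMEM of pH 7.4 with DMSO. The treatment protocol in the labels writes another number after SRPIN, and the name in the titles and the design is used here. Both treatments were set against control to see how a mildly acidic medium and the block of SR protein kinases alter the transcriptome.

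HIF is a transcription factor made of an oxygen-labile α subunit and the constitutive partner ARNT. In the presence of oxygen, the EGLN enzymes hydroxylate the α subunit, VHL recognizes the hydroxylated protein, and the proteasome removes it. HIF activity is therefore set mainly at the protein level, whereas the counts measure mRNA. EGLN3 and, in many cells, EGLN1 are themselves HIF targets, which makes the hydroxylases part of a feedback loop. The amounts of HIF protein were not analysed here.

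Estimated counts per library ranged from 13615944 to 24110439, and the 2 smallest libraries were acidosis replicates 2 and 3. Levels are given as CPM, counts scaled to library totals that were corrected by TMM, a normalization that centres the typical gene. TMM factors were 1.17 to 1.21 at pH 7.4 and 0.782 to 0.80 in acidosis, so values in acidosis are relative to the typical gene. With library totals alone, the median log2 fold change of all tested genes in acidosis moved by -0.57, from -0.052 to -0.63. The counts do not tell fewer cells from less RNA per cell. All 7 genes listed as HEK-293 markers had counts in every library, but some moved with acidosis. PAX2, the lowest, was at 5.31 to 7.06 CPM at pH 7.4 and 1.19 to 2.48 CPM in acidosis, and VIM at 836 to 892 CPM and 2675 to 2745 CPM. Of 9 markers of other cell types, CD3E was at 0 in every library, and LUM was the only one above 1 CPM. LUM, a fibroblast matrix gene that moved with acidosis, was at 7.57 to 12.2 CPM at pH 7.4 and 22 to 28.7 CPM in acidosis, while the fibroblast gene DCN stayed between 0.14 and 0.324 CPM. The leukocyte gene PTPRC was at 0.036 to 0.281 CPM at pH 7.4 and 0.602 to 0.826 CPM in acidosis. The part of these markers in the results was not tested.

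In acidosis the 10 genes went in opposite directions. NDRG1, ADM and ANKRD37 rose, BNIP3 and EGLN3 fell, EGLN1 fell and VEGFA rose by less, and the changes of HIF1A, EPAS1 and KDM3A did not pass the test. A gene passed at a Benjamini-Hochberg adjusted p under 0.05 in edgeR's quasi-likelihood test, and it was called when the absolute log2 fold change was also over 1. Of the 10 genes 5 were called, against 33.5% of all tested genes. They were 3 called higher, against 14.4%, and 2 called lower, against 19.1%. Without the fold limit 7 of the 10 passed, where 66.7% of all tested genes did, and the same 7 had acidosis and control libraries that did not overlap, where 76.5% of all tested genes did not. The median log2 fold change of the 10 genes was 0.31, and that of all tested genes was -0.052. The median of the 10 genes turned to -0.26 with library totals alone, beside -0.63 for all tested genes. Then 3 of the 10 were called higher and 3 lower, where 815 and 5202 of all 14863 tested genes were. With TMM, the share of the 10 genes that passed was close to that of all tested genes.

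**Figure D1:**
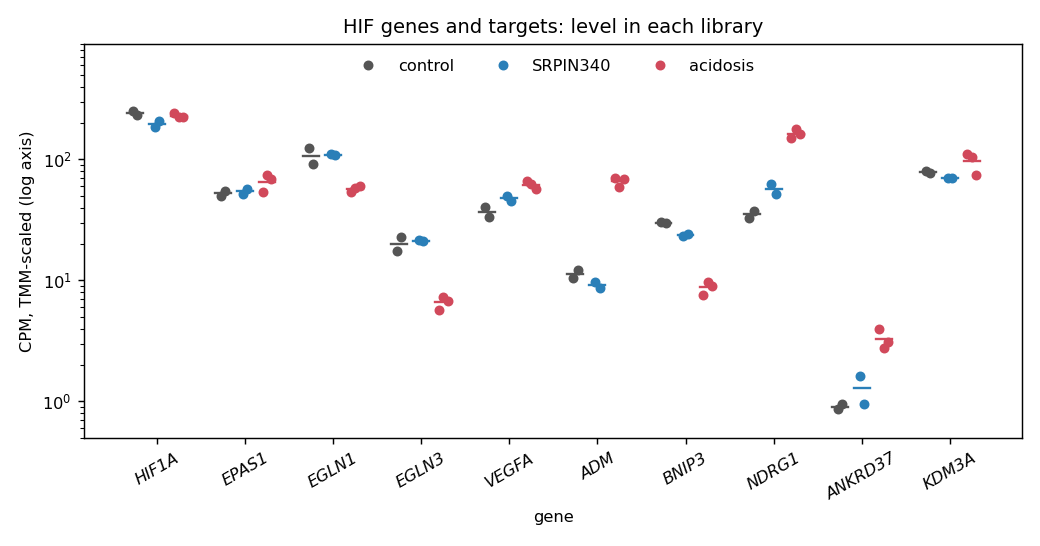
Level of each of the 10 genes in each library, as CPM with TMM-scaled totals on a log axis (points are libraries, bars are group means; 2 control, 2 SRPIN340 and 3 acidosis samples). ADM, NDRG1 and ANKRD37 have acidosis points well above the others, EGLN1, EGLN3 and BNIP3 have them below, and HIF1A points lie between 187 and 253 CPM in all groups.

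The α subunits come first. HIF1A (ENSG00000100644, chromosome 14 of GRCh38, 61695513 to 61748259) encodes HIF-1α, the most widely expressed α subunit. It was at 253 and 233 CPM in control, 187 and 207 CPM with SRPIN340, and 243, 225 and 223 CPM in acidosis. Acidosis and control libraries overlapped, and both SRPIN340 libraries were the lowest of the 7. Acidosis differed from control by -0.076 on the log2 scale (standard error 0.0756, 95% interval -0.25 to 0.094, adjusted p = 0.396 from edgeR). With library totals alone it was -0.65 (adjusted p = 2.94e-05), which is about the shift of all genes. With SRPIN340 edgeR gave -0.30 on the log2 scale (standard error 0.0826, adjusted p = 0.0972), and DESeq2 gave -0.31 with an adjusted p of 0.0185.

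EPAS1 (ENSG00000116016, chromosome 2, 46293667 to 46386697) encodes HIF-2α, the α subunit best known from endothelium and the kidney interstitium. Control libraries held 49.7 and 55 CPM, SRPIN340 libraries 51.9 and 57.4 CPM, and acidosis libraries 54.1, 73.7 and 69.1 CPM. Acidosis replicate 1 lay within the control range and the other acidosis replicates above it. In edgeR the difference was 0.32 on the log2 scale (standard error 0.133, adjusted p = 0.0549), and it was 0.45 without acidosis replicate 1 (adjusted p = 0.00466). It also passed with RLE size factors (adjusted p = 0.0438) and DESeq2 (adjusted p = 0.0277), and its sign turned with library totals alone (log2 fold change -0.25). The ratio of HIF1A to EPAS1 within a library, per transcript length, does not depend on scaling between libraries. It was 6.66 and 5.53 in control, 4.71 and 4.72 with SRPIN340, and 5.87, 3.99 and 4.21 in acidosis. Acidosis libraries overlapped those of both other groups, while both SRPIN340 libraries were below both control libraries.

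Of the hydroxylases, EGLN1 (ENSG00000135766, chromosome 1, 231363751 to 231422287) encodes PHD2, the main enzyme marking HIF-1α for degradation in oxygenated cells. Its level was 124 and 91 CPM in control, 110 and 108 CPM with SRPIN340, and 53.3, 58.2 and 60.8 CPM in acidosis. Every acidosis library was below every library of pH 7.4. EGLN1 fell to 0.533 of the control level (log2 fold change -0.91, 95% interval -1.19 to -0.63, adjusted p = 0.000126 from edgeR), under the fold limit of a call. Without control replicate 2, the lower control library, it reached -1.13 and the gene was called, as it was with library totals alone (-1.48). Another gene of the table without a symbol, ENSG00000287856, shares 863 exonic nucleotides with EGLN1 on the same strand. Its level was 1.48 and 4.35 CPM in control and 5.64, 4.77 and 8.86 CPM in acidosis, which is small beside the fall of EGLN1. Long noncoding RNA genes that are not among the deposited genes share 753 exonic nucleotides with NDRG1 and 148 with HIF1A on the same strand. Their part in the counts of NDRG1 and HIF1A was not tested.

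EGLN3 (ENSG00000129521, chromosome 14, 33924227 to 34462774) encodes PHD3, the hydroxylase most strongly induced by HIF in many cell types. It was at 17.4 and 22.7 CPM in control, 21.4 and 21.3 CPM with SRPIN340, and 5.7, 7.25 and 6.79 CPM in acidosis. The acidosis libraries were all below the others, and the gene fell to 0.327 of the control level (log2 fold change -1.61, standard error 0.169, adjusted p = 1.98e-05 from edgeR). EGLN2, which encodes PHD1 and is listed with the machinery, was at 59.5 and 72.3 CPM in control and 64.9, 57.8 and 58.1 CPM in acidosis (log2 fold change -0.13, adjusted p = 0.365). With library totals alone its log2 fold change was -0.70 (adjusted p = 0.000439 from edgeR).

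The makeup of the hydroxylase mRNA pool shifted accordingly. Per transcript length, EGLN2 was 44.7% and 54% of the EGLN1, EGLN2 and EGLN3 total in control, and 68.2%, 63.1% and 62.6% in acidosis. The share of EGLN3 was 10.1% and 13.1% in control and 4.65%, 6.14% and 5.68% in acidosis. EGLN1 made up 45.2% and 32.9% in control and 27.2%, 30.8% and 31.7% in acidosis. These shares are taken within a library and need no scaling between libraries. With SRPIN340 they were within the control range for all 3 genes.

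The strongest rise among the targets was that of ADM (ENSG00000148926, chromosome 11, 10305073 to 10307397), which encodes the vasodilator peptide adrenomedullin. It was at 10.5 and 12.1 CPM in control, 9.73 and 8.73 CPM with SRPIN340, and 70.9, 59.5 and 69 CPM in acidosis. All acidosis libraries were far above those of pH 7.4. The rise was 5.89-fold (log2 fold change 2.56, standard error 0.134, adjusted p = 2.11e-07 from edgeR), larger than that of 97.8% of all tested genes.

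NDRG1 (ENSG00000104419, chromosome 8, 133237175 to 133302022), a stress-responsive gene that is widely used as a hypoxia marker, rose 4.63-fold. Its control libraries held 32.5 and 37.8 CPM and its acidosis libraries 150, 179 and 161 CPM (log2 fold change 2.21, standard error 0.123, adjusted p = 3.01e-07 from edgeR). SRPIN340 libraries lay in between, at 62.1 and 51.5 CPM. NDRG1 was the only one of the 10 genes to pass with SRPIN340 in edgeR, where 2.3% of all tested genes passed, and it was not called (log2 fold change 0.69, standard error 0.127, adjusted p = 0.0323 from edgeR). Its adjusted p was 0.157 without control replicate 1, 0.0859 without control replicate 2, 0.241 without SRPIN340 replicate 1, 0.0966 without SRPIN340 replicate 2 and 0.0525 without acidosis replicate 3, while its log2 fold change stayed between 0.55 and 0.82.

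ANKRD37 (ENSG00000186352, chromosome 4, 185396021 to 185400628), which encodes a small ankyrin repeat protein and is induced by HIF in many cell types, was the least abundant of the 10 genes in control. It had 24 and 27 counts in control, 44 and 25 with SRPIN340, and 67, 30 and 36 in acidosis. As CPM these were 0.865 and 0.948, 1.62 and 0.949, and 3.98, 2.75 and 3.1. The acidosis libraries were above all others, and the log2 fold change was 1.85 (95% interval 0.94 to 2.77, adjusted p = 0.00266 from edgeR), with the widest interval of the 10 genes. Of its 784 canonical nucleotides, 429 overlap exons of UFSP2 on the opposite strand, and whether the counting used strand is not given in the sources used here. UFSP2 itself was at 22.2 and 21.6 CPM in control and 16.5, 18.4 and 12.8 CPM in acidosis. Whether reads of the shared stretch entered the counts of ANKRD37 was not tested.

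VEGFA (ENSG00000112715, chromosome 6, 43770184 to 43786487) encodes vascular endothelial growth factor A, the best known angiogenic HIF target. Levels were 40.6 and 33.1 CPM in control, 50.3 and 45.7 CPM with SRPIN340, and 66.3, 62.8 and 56.7 CPM in acidosis. The 3 groups did not overlap. VEGFA rose 1.68-fold in acidosis (log2 fold change 0.75, standard error 0.119, adjusted p = 0.000335 from edgeR), under the fold limit, and library totals alone gave 0.18 with an adjusted p of 0.207. With SRPIN340 its log2 fold change was 0.38 (95% interval 0.096 to 0.67, adjusted p = 0.158 from edgeR).

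BNIP3 (ENSG00000176171, chromosome 10, 131967684 to 131981967) encodes a mitochondrial receptor for autophagy and is a classical HIF-1 target, and it fell most. It was at 30.1 CPM in both control libraries, 23.1 and 24 CPM with SRPIN340, and 7.6, 9.73 and 9.03 CPM in acidosis. Both treated groups were below control in every library. The level in acidosis was 0.29 of control (log2 fold change -1.78, standard error 0.135, adjusted p = 2.14e-06 from edgeR), and with SRPIN340 it was -0.35 on the log2 scale and did not pass (adjusted p = 0.231). Its paralogue BNIP3L, from the list of other targets, was at 77.7 and 73.9 CPM in control and 97.4, 100 and 103 CPM in acidosis (log2 fold change 0.40, adjusted p = 0.00106), which became -0.17 with library totals alone. The ratio of BNIP3L to BNIP3 within a library, per transcript length, was 1.15 and 1.1 in control, 1.24 and 1.14 with SRPIN340, and 5.72, 4.61 and 5.09 in acidosis.

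KDM3A (ENSG00000115548, chromosome 2, 86440647 to 86492716) encodes a histone H3 lysine demethylase that itself requires oxygen. It was at 80 and 77.5 CPM in control, 69.8 and 70.1 CPM with SRPIN340, and 111, 105 and 74.5 CPM in acidosis. Acidosis replicate 3 was below both control libraries and the other acidosis replicates were above them. The fitted difference was 0.30 on the log2 scale (standard error 0.146, adjusted p = 0.0945 from edgeR). Without acidosis replicate 3 it was 0.46 (adjusted p = 0.00122), DESeq2 gave 0.32 (adjusted p = 0.0473), and with library totals alone the sign turned (-0.27).

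**Figure D2:**
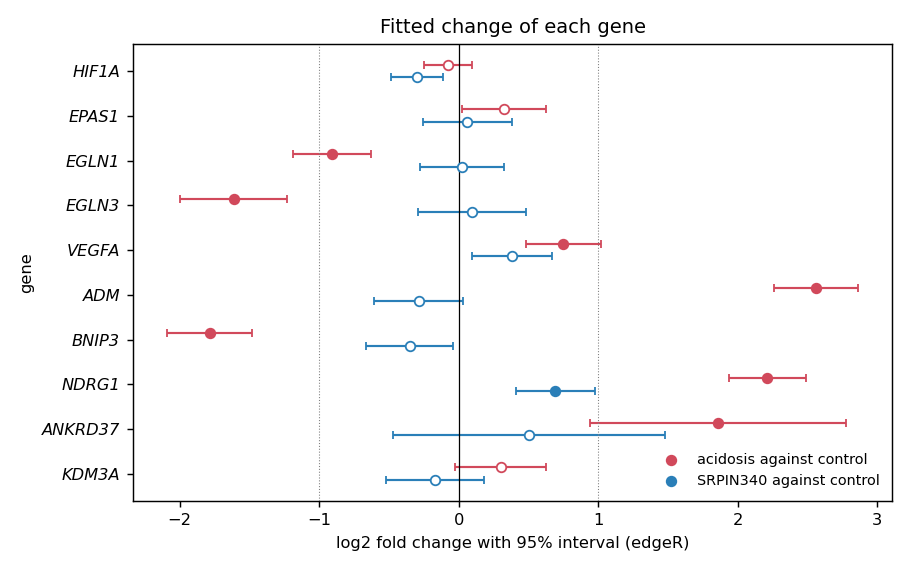
Fitted log2 fold change of each gene with its 95% interval, for acidosis against control (red) and SRPIN340 against control (blue); filled points passed at an adjusted p under 0.05 and dotted lines mark the fold limit of a call. Changes in acidosis reach from -1.78 for BNIP3 to 2.56 for ADM, while those with SRPIN340 lie between -0.35 and 0.69 and share the control samples.

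Ratios of targets within a library need no scaling between libraries. They show how far a pair of genes moved apart, not the direction of each gene. ADM and NDRG1 rose most and BNIP3 fell most among the 10 genes, so wide ratios follow from that choice. Per transcript length, the ratio of NDRG1 to BNIP3 was 0.551 and 0.641 in control, 1.37 and 1.09 with SRPIN340, and 10, 9.36 and 9.1 in acidosis. The mean ratio in acidosis was 15.9 times that in control. The ratio of ADM to BNIP3 was 0.358 and 0.416 in control, 0.435 and 0.376 with SRPIN340, and 9.63, 6.32 and 7.89 in acidosis. No acidosis library came near the others in either ratio.

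**Figure D3:**
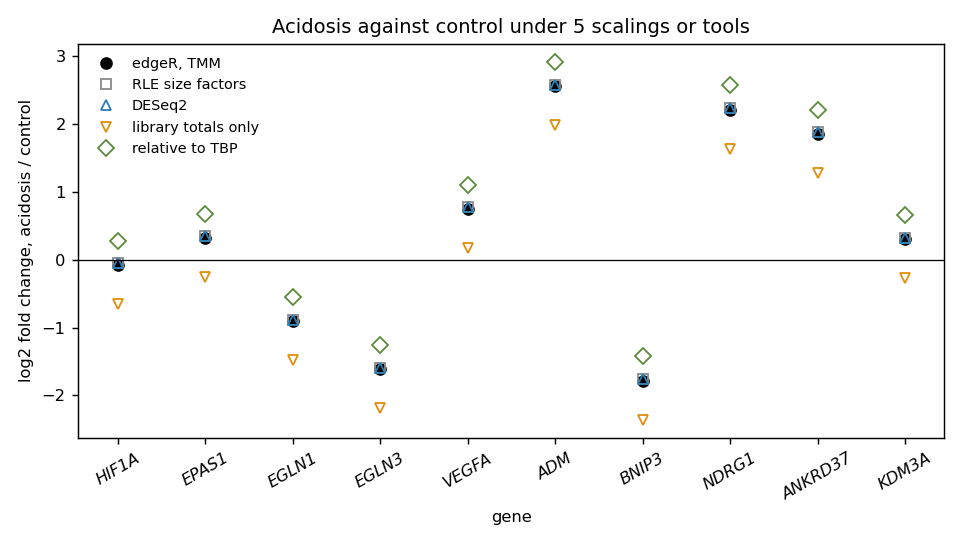
Log2 fold change in acidosis against control for each gene with edgeR and TMM (filled), RLE size factors, DESeq2, library totals only, and relative to TBP. The signs of EGLN1, EGLN3, BNIP3, VEGFA, ADM, NDRG1 and ANKRD37 are shared by all 5, while HIF1A, EPAS1 and KDM3A change sign between them.

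TBP, which served as the RT-PCR reference of the study, was itself lower in acidosis (log2 fold change -0.36, adjusted p = 0.0225 from edgeR). Taken as a ratio to TBP, changes in acidosis were on the log2 scale 2.92 for ADM, 2.57 for NDRG1 and 2.21 for ANKRD37. On the same scale they were 1.11 for VEGFA, -0.55 for EGLN1, -1.25 for EGLN3 and -1.43 for BNIP3. HIF1A turned to 0.28.

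Each of the 10 genes was compared per kilobase of its canonical transcript, since long transcripts collect more counts. The deposited counts do not name the transcripts behind them, so this order is approximate. In control, HIF1A was the most abundant at 61.6 CPM per kb, followed by EGLN1 at 24.8, BNIP3 at 19.5 and KDM3A at 16.9. NDRG1 at 11.6, VEGFA at 10.2 and EPAS1 at 10.2 CPM per kb came next, and in this run of 3 the libraries of neighbouring genes overlapped. ADM at 7.56 and EGLN3 at 7.4 CPM per kb overlapped as well, and ANKRD37 was lowest at 1.16 CPM per kb. In acidosis HIF1A at 58.4 and NDRG1 at 53.9 CPM per kb overlapped at the top, followed by ADM at 44.5 CPM per kb. BNIP3 dropped from the third to the eighth place at 5.7 CPM per kb, where its libraries overlapped those of ANKRD37 at 4.18 CPM per kb. EGLN3 was last at 2.43 CPM per kb. With SRPIN340 the order stayed closer to control, and NDRG1 moved up to the third place at 18.8 CPM per kb.

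**Figure D4:**
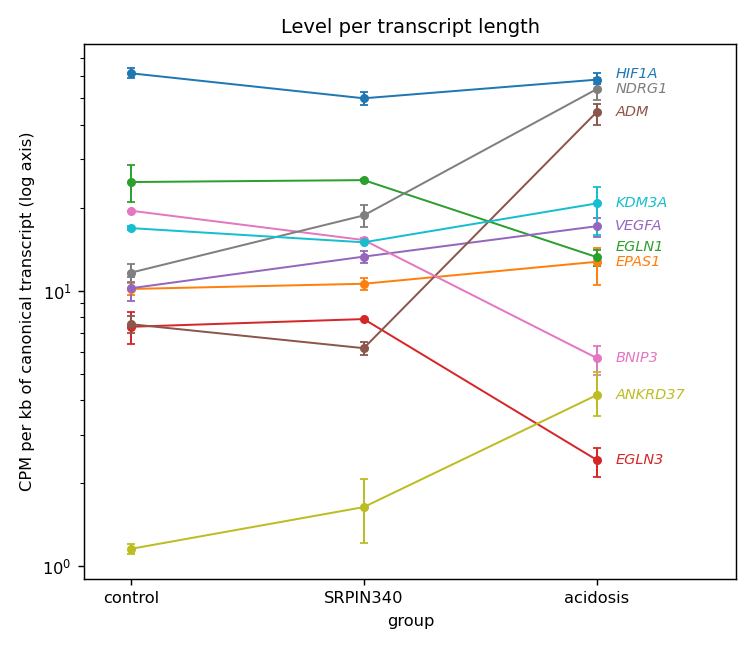
Mean level per kilobase of canonical transcript in each group on a log axis, with bars from the lowest to the highest library (2, 2 and 3 samples); lines join the values of 1 gene. NDRG1 and ADM climb to 53.9 and 44.5 CPM per kb in acidosis, and BNIP3 and EGLN3 drop to 5.7 and 2.43.

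Tested directly against SRPIN340, acidosis gave calls for the same 5 genes, against 34.6% of all tested genes. This contrast is also the test of whether both responses differ, because both are taken against the same control samples. ADM was higher by 2.85, NDRG1 by 1.52 and ANKRD37 by 1.35 on the log2 scale (adjusted p = 1.28e-07, 2.56e-06 and 0.0124 from edgeR). EGLN3 and BNIP3 were lower, with log2 fold changes of -1.71 and -1.43 (adjusted p = 1.3e-05 and 9.84e-06). Of all tested genes, 14.9% were called higher and 19.7% lower in this contrast. For ANKRD37 the adjusted p was 0.109 without SRPIN340 replicate 2 (log2 fold change 1.01) and 0.116 with library totals alone (0.74). NDRG1 still passed with library totals alone, but at 0.91 it was under the fold limit. HIF1A passed with a log2 fold change of 0.23 (adjusted p = 0.0245), but with library totals alone it was -0.39 (adjusted p = 0.000957), so its direction depends on the scaling, and it did not pass without SRPIN340 replicate 1 (adjusted p = 0.237) or without acidosis replicate 1 (adjusted p = 0.075). VEGFA and KDM3A passed at 0.37 and 0.47 (adjusted p = 0.0183 and 0.0167), and both turned negative with library totals alone (-0.25 and -0.14). VEGFA did not pass without SRPIN340 replicate 2 (adjusted p = 0.147) or acidosis replicate 1 (adjusted p = 0.0534). KDM3A did not pass without SRPIN340 replicate 1 (adjusted p = 0.0842), SRPIN340 replicate 2 (adjusted p = 0.0806) or acidosis replicate 1 (adjusted p = 0.0541). With EGLN1, which was lower by a log2 fold change of -0.93, 9 of the 10 genes passed, where 67.8% of all tested genes did, and for 9 the libraries of both groups did not overlap, where 78.3% of all tested genes did not. With SRPIN340 against control 0 of the 10 genes were called by edgeR or DESeq2, and 0.323% of all tested genes were called by edgeR. An unadjusted p under 0.05 from edgeR was found for 4 of the 10, where 2621 of the 14863 tested genes had one. For 7 of the 10 the SRPIN340 and control libraries did not overlap, which held for 54.1% of all tested genes.

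HIF binds the core letters ACGTG or GCGTG, the hypoxia response element. RefSeq promoter windows (GRCh38.p14, 250 bases before to 50 after a start) were matched for 8 of the 10 genes, all but NDRG1 and VEGFA. Both motifs were searched on both strands. Of 35116 promoter windows in the table, 48.4% held at least 1 match, so a match by itself is common. That share counts windows, and the 8 genes had 10 windows. At least 1 match was found for 7 of the 8 genes. There was none in the window of EGLN3 and none in 1 of the windows of HIF1A. ANKRD37 had 3 matches and BNIP3 had 6, and 10.1% of all windows had at least 3. In both promoters 2 of the matches overlap within CACGTG, the palindromic E-box, which 7.26% of all windows hold. The stretches around the matches are shown for the 4 genes that had a match and also passed in acidosis. They run 5′ to 3′ on the strand of the gene, with matches of either strand in capitals. ANKRD37 and ADM rose, BNIP3 and EGLN1 fell.
ANKRD37, chr4:185396649-185396732, plus strand: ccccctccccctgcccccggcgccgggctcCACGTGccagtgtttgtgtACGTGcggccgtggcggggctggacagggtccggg
BNIP3, chr10:131981993-131982096, minus strand: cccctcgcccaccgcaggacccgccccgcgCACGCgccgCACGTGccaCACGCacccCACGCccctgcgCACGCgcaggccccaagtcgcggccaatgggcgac
ADM, chr11:10304942-10305006, plus strand: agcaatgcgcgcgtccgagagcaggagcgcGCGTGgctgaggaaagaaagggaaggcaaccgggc
EGLN1, chr1:231422288-231422330, minus strand: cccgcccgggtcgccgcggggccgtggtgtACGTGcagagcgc

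Counted from the start, the first base of a match lay at -162, -161 and -143 in ANKRD37, from -143 to -104 in BNIP3, at -101 in ADM and at -13 in EGLN1. Matches were thus found both where a gene rose and where it fell. They are letters in a sequence, and HIF binding was not analysed here.

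Among 15 genes of the HIF machinery, all tested, calls in acidosis were 3 higher and 3 lower, and the list's median log2 fold change was 0.30, where 14.4% of all tested genes were called higher and 19.1% lower. With library totals alone this became 1 higher and 5 lower, where 815 and 5202 of all 14863 tested genes were. The list's median turned to -0.27, beside -0.63 for all tested genes. HIF1AN, which encodes the asparaginyl hydroxylase FIH that blocks the coactivator contact of HIF-α, fell furthest. It was at 186 and 189 CPM in control, 170 and 179 CPM with SRPIN340, and 40, 31.9 and 33.9 CPM in acidosis (log2 fold change -2.41, standard error 0.0958, adjusted p = 4.19e-08 from edgeR). EP300, a coactivator of HIF, fell in acidosis, with 263 and 265 CPM in control against 116, 133 and 126 CPM. CITED2, which competes with HIF-α for that coactivator, rose, with 89.3 and 76.3 CPM in control against 173, 182 and 174 CPM. SIAH1, a ubiquitin ligase for EGLN proteins, rose by 1.83 on the log2 scale, and ELOB, an adaptor of the VHL ligase, by 1.24. With library totals alone CITED2 and ELOB rose by 0.51 and 0.66 and were under the fold limit.

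Both partner subunits changed, in opposite directions. ARNT, the common partner of the α subunits, was at 58.4 and 49 CPM in control and 91.2, 90.8 and 71.4 CPM in acidosis (log2 fold change 0.65, adjusted p = 0.00139 from edgeR), but the difference was 0.082 with library totals alone. ARNT2, its paralogue, fell from 27.7 and 27.3 CPM to 8.79, 12.5 and 13.1 CPM (log2 fold change -1.28, adjusted p = 7.75e-05). VHL, the substrate receptor, was at 139 and 121 CPM in control and 86.6, 81.4 and 88 CPM in acidosis (log2 fold change -0.61, adjusted p = 9.96e-05), under the fold limit and at -1.19 with library totals alone. With SRPIN340 0 of the 15 machinery genes passed in edgeR, where 2.3% of all tested genes did. An unadjusted p under 0.05 was found for 1 of the 15, where 2621 of the 14863 tested genes had one.

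Of 42 other HIF targets outside glycolysis, 39 were tested, and they too went both ways. In acidosis 9 of them were called higher and 7 lower, against the same 14.4% and 19.1% of all tested genes, and their median log2 fold change was 0.018. EDN1, which encodes the vasoconstrictor endothelin-1, rose from 8 and 4 counts in control to 121, 71 and 87 counts in acidosis (log2 fold change 5.01, standard error 0.423, adjusted p = 4.47e-06 from edgeR). STC2, a secreted stanniocalcin, had 36.4 and 31.9 CPM in control and rose to 189, 159 and 151 CPM. PGF, a relative of VEGFA, fell from a mean of 9.48 ± 1.64 CPM (SD) in control to 1.82 ± 0.423 CPM (SD), and LOX, a collagen crosslinking enzyme, fell from 18.1 ± 2.49 CPM (SD) in control to 5.67 ± 2.36 CPM (SD). PPP1R3C, a glycogen-targeting phosphatase subunit, had 52 and 51 counts in control and 2, 4 and 1 in acidosis. With library totals alone the list gave 6 calls higher and 15 lower, where 815 and 5202 of all 14863 tested genes were called. Its median was then -0.56, beside -0.63 for all tested genes.

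The 3 genes of this list that were too low to test were EPO, CA9 and ANGPTL4. The carbonic anhydrase gene CA9, a standard hypoxia marker, had 0 counts in both control libraries, 1 and 5 with SRPIN340, and 0, 0 and 1 in acidosis. EPO had at most 4 counts in any library and ANGPTL4 at most 4.

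Glycolytic HIF targets were called mostly higher in acidosis, though with TMM and not with library totals alone. Calls were 8 higher and 1 lower among 20 genes, against 14.4% and 19.1% of all tested genes. Their median was 0.60 on the log2 scale. With library totals alone 1 was called higher and 1 lower, where 815 and 5202 of all 14863 tested genes were. The median of the 20 genes was then 0.03, beside -0.63 for all tested genes. The glucose transporter gene SLC2A1 had 47.5 and 44.1 CPM in control and rose to 157, 182 and 156 CPM in acidosis. PFKFB3 and SLC2A3 followed, at log2 fold changes of 1.51 and 1.41, and PFKFB4 fell by 1.55 on the log2 scale. PDK1, a kinase that HIF-1 induces to restrain pyruvate oxidation, was at 52.3 and 42.1 CPM in control and 42.4, 47.1 and 41.1 CPM in acidosis (adjusted p = 0.447). With library totals alone its log2 fold change was -0.69 (adjusted p = 0.000996 from edgeR).

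**Figure D5:**
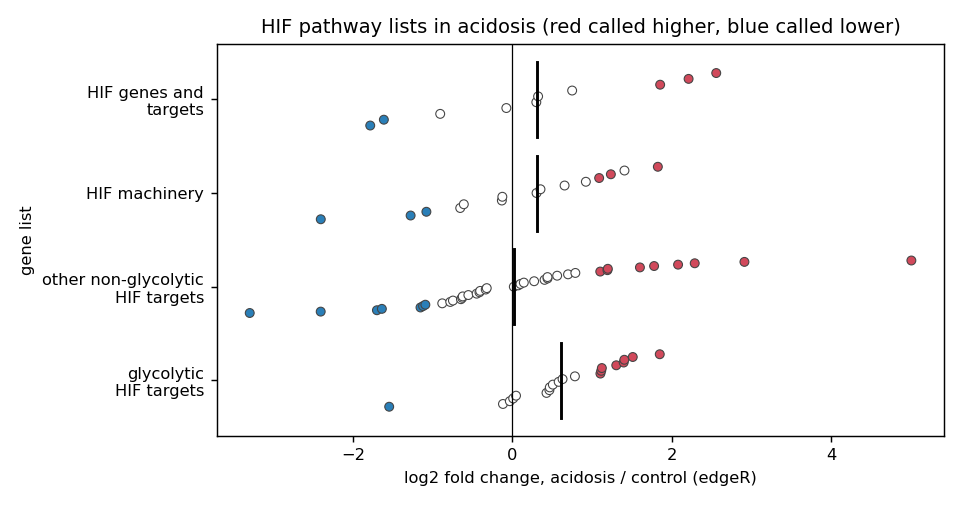
Log2 fold change in acidosis against control of every tested gene in 4 lists (1 point a gene, black bars are list medians; red was called higher and blue lower). Medians are 0.31 for the 10 HIF genes and targets, 0.30 for the machinery, 0.018 for 39 other targets and 0.60 for 20 glycolytic targets, and each list holds called genes on both sides.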

How the data were processed

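The authors trimmed paired-end reads with Trimmomatic 0.39 and Trim Galore 0.6.6, ran Salmon 1.5.1 on Gencode transcripts of GRCh38.p13, and collected gene values through tximport. What they deposited are estimated counts per gene, in part fractional and without any normalization across libraries. The tximport option and the use of strand are not given in the sources used here. Samples were grouped by their labels. Of 19978 identifiers 19977 matched GENCODE release 44.

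Counts were rounded and fitted for all 7 samples with edgeR 4.0.16 in R 4.3.3 (TMM, filterByExpr, quasi-likelihood test), and p-values were adjusted over all 14863 tested genes. Standard errors came from the test statistic. Deviations between biological repeats are the only error estimated. DESeq2 1.42.0, other scalings, no filter, the groups compared alone, a replicate block, each sample left out and a ratio to TBP were alternatives. Code was tested on simulated data. Figures used matplotlib 3.10.9.

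The 10 genes, the other lists and the tests were chosen with earlier results of these data known. Named genes were the 10 genes, ARNT, VHL, TBP, the 3 highest and 3 lowest called genes of each list, and any list gene called with SRPIN340; 1 gene that this rule names is not reported here. EGLN2, BNIP3L, PDK1, UFSP2, the marker genes, the genes too low to test and the glycolytic genes named for SRPIN340 were added after their values were seen.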

Additional observations from a re-analysis of the deposited data

How the results depend on the processing

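With library totals alone, calls in acidosis against control came to 815 higher and 5202 lower (13.5% higher, against 43% with TMM), and 775 and 5505 against SRPIN340, where 1 of the 10 genes was called higher. The log2 fold changes of EPAS1 and KDM3A in acidosis against control then turned to -0.25 and -0.27, and those of HIF1A, EPAS1, VEGFA and KDM3A against SRPIN340 to -0.39, -0.35, -0.25 and -0.14. With no fold limit 4836 genes passed higher and 5081 lower in acidosis against control, 114 and 228 with SRPIN340 (1 of the 10 genes higher), and 4882 and 5202 in acidosis against SRPIN340 (6 of the 10 genes higher).

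With only the groups compared in the fit, 33 genes were called higher with SRPIN340 in place of 19. With each sample left out in turn, calls with SRPIN340 ranged from 3 to 30 higher and from 8 to 36 lower, and the log2 fold changes with SRPIN340 ranged from -0.012 to 0.14 for EPAS1, -0.19 to 0.26 for EGLN1 and -0.087 to 0.30 for EGLN3, on both sides of 0. With the replicate block, 5 genes were called higher with SRPIN340 and NDRG1 no longer passed there (adjusted p = 0.10), HIF1A no longer passed in acidosis against SRPIN340 (adjusted p = 0.0519), and KDM3A passed in acidosis against control (adjusted p = 0.0038). Deviations of same-numbered samples correlated between -0.115 and 0.063. No strong shared deviation was thus seen, which does not tell whether same-numbered samples were prepared together. The cause of the differences between the fits was not tested. ADM, NDRG1, EGLN3, BNIP3 and ANKRD37 kept their direction and passed in acidosis against control under every alternative with a test. They also kept their direction in the ratio to TBP, which has no test. EGLN1 did the same, though mostly under the fold limit of a call. Groups of 2 and 3 samples and the low counts of ANKRD37 limit the precision.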

Other observations

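With SRPIN340, 5 of the 20 glycolytic HIF targets passed edgeR's test without being called, where 2.3% of all tested genes passed. They were picked for naming after their values were seen. TPI1, ALDOA, LDHA and ENO1 were lower, with log2 fold changes of -0.57, -0.60, -0.50 and -0.40 (adjusted p = 0.00384, 0.00831, 0.00831 and 0.00794 from edgeR), and ENO2 was higher by 0.51 (adjusted p = 0.0323). LDHA, which encodes the lactate dehydrogenase A subunit, was at 824 and 756 CPM in control, 578 and 539 CPM with SRPIN340, and 1068, 1110 and 1103 CPM in acidosis. Its 3 groups did not overlap. Acidosis against SRPIN340 gave a log2 fold change of 0.97 for LDHA (adjusted p = 7.42e-07 from edgeR). Acidosis against control gave 0.47 (adjusted p = 8.96e-05), which turned to -0.11 with library totals alone (adjusted p = 0.137).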
